A study of Homo sapiens with 6 samples.

Results

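Small nucleolar RNA (snoRNA) host genes were followed in ALL-SIL cells, a line from a human T-cell leukaemia, under JQ1. JQ1 is an inhibitor that takes up the acetyl-lysine pocket of bromodomain and extra-terminal (BET) proteins, so that these leave chromatin. The hosts were chosen by name: every gene whose GENCODE release 29 name is SNHG followed by a number, with GAS5, ZFAS1, DANCR and MEG8. They came to 29 gene identifiers of the 58096 counted, under 28 names, since SNHG28 stands for 2 identifiers, 1 of them annotated as protein coding and the rest as long non-coding RNA (lncRNA). The cells of the JQ1 group had 1 µM JQ1 for 24 h, and those of the other group had the solvent DMSO. Each group had 3 total RNA libraries, numbered 1 to 3, and both were grown in the same medium. ALL-SIL is 1 cell line, and the labels do not tell separate cultures from repeats of 1 culture, so each p-value is set by a spread that may be technical.

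A snoRNA host gene is transcribed like a messenger RNA gene, and its introns carry snoRNAs that are released when the transcript is spliced. Box C/D snoRNAs guide 2′-O-methylation and box H/ACA snoRNAs guide pseudouridylation, mainly of ribosomal RNA, while the related scaRNAs act on spliceosomal RNA in Cajal bodies. Many host transcripts, like those of ribosomal protein genes, begin with a C followed by a run of pyrimidines, and several are taken up by ribosomes and removed by nonsense-mediated decay, so that the spliced exons are short-lived while the snoRNA from the intron is stable. GAS5 is known for rising in growth-arrested cells, and SNHG14 and MEG8 are imprinted clusters with long arrays of snoRNAs.

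Gene counts ran from 15925885 to 25293884 per library, and 1 CPM (counts scaled to the normalised library size) was 15.5 to 26.4 reads. Of a list of 12 T-lineage and ALL-SIL markers 11 were tested. Of these 2 were higher and 9 lower in JQ1 (edgeR adjusted p under 0.05, as below), beside 15.9% and 20.6% of all tested genes. The median log2 fold change of the 11, JQ1 over DMSO, was -1.65. The list's summed level was 1190 to 1471 CPM in JQ1 libraries and 1641 to 1786 CPM in DMSO libraries. TLX1, the homeobox gene activated in this line, was 1 of the 2 higher markers. It had 249 ± 8.94 CPM in JQ1 and 182 ± 16.1 CPM in DMSO (SD, n = 3 each). Of 16 markers of other blood or tissue cells 15 were under 1 CPM in every library, and MS4A1, MPO, ELANE, HBB, NCAM1 and PF4 had no count in any. The list's sum was 0.774 to 5.58 CPM in JQ1 and 4.58 to 12.8 CPM in DMSO, and most of it was CD79A, with 203 of the JQ1 and 582 of the DMSO counts. The part of these lists in the results on the hosts was not tested. Less RNA in each cell and fewer cells with the RNA cannot be told apart in such libraries.

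The sequences around the annotated start were read for hosts on both sides of the comparison, to show where RefSeq places the start of their transcripts. They are 100 bases on the transcribed strand from RefSeq (GRCh38.p14), and the capitals mark the first 8 bases from the annotated start. The hosts with a positive fitted log2 fold change, JQ1 over DMSO, come first, without SNHG6, whose sequence is not shown. SNHG4 follows, since it shares a kind of start with some of them though its value was negative, and then come the hosts called lower that have a RefSeq entry.
SNHG5 (chr6:85678684-85678783, minus strand): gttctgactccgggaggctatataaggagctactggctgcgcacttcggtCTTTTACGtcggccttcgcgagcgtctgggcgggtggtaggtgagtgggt
SNHG19 (chr16:2155309-2155408, minus strand): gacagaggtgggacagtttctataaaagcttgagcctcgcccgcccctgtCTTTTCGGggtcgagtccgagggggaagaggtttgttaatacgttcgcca
SNHG12 (chr1:28581824-28581923, minus strand): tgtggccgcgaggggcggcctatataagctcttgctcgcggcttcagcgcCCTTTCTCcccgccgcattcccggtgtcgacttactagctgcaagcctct
ZFAS1 (chr20:49278592-49278691, plus strand): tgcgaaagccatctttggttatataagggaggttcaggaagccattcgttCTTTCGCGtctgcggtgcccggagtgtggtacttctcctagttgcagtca
SNHG1 (chr11:62855836-62855935, minus strand): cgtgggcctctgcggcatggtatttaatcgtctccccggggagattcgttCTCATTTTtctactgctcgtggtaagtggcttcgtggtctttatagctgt
SNHG7 (chr9:136728135-136728234, minus strand): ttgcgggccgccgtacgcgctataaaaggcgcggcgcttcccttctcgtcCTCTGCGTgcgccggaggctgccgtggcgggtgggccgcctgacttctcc
GAS5 (chr1:173868996-173869095, minus strand): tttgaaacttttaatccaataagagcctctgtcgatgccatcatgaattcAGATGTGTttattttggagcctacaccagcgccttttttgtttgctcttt
SNHG4 (chr5:139274051-139274150, plus strand): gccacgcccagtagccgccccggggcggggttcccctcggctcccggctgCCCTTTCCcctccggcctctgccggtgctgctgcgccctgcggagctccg
SNHG16 (chr17:76557714-76557813, plus strand): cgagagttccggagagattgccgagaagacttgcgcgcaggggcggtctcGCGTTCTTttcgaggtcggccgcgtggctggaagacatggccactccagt
SNHG20 (chr17:77088593-77088692, plus strand): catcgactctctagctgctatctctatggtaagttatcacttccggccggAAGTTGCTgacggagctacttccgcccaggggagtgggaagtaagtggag
SNHG17 (chr20:38435279-38435378, minus strand): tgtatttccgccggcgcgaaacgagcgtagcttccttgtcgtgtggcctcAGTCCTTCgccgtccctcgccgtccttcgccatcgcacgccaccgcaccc
SNHG10 (chr14:95534823-95534922, minus strand): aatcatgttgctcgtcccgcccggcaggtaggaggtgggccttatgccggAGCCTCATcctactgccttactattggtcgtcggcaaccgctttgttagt
SNHG26 (chr7:22854190-22854289, plus strand): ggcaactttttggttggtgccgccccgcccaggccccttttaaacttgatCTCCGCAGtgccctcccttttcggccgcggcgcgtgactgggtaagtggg
SNHG8 (chr4:118278712-118278811, plus strand): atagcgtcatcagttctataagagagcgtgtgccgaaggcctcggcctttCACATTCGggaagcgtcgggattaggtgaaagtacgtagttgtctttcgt
SNHG5, SNHG19, SNHG12, ZFAS1 and SNHG4 start with C and go on with pyrimidines, for 5, 6, 11, 5 and 13 bases. SNHG1 and SNHG7, with positive values too, start with C and have 3 and 4 pyrimidines in a row, and the RefSeq start of GAS5 is an A. That start lies at -163 bases from the GENCODE start of GAS5, outside the gene as annotated there. In GENCODE release 29, 6 of 29 GAS5 transcripts start with C and at least 4 more pyrimidines. For SNHG12, ZFAS1 and SNHG20 the RefSeq start lies 1259, 464 and 1927 bases inside the GENCODE gene. Of the lower hosts SNHG16, SNHG20, SNHG17 and SNHG10 start with G or A, while SNHG26 starts with C and a run of 4 and SNHG8 with a C alone. Starts with C thus stood on both sides of the comparison.

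Box C/D snoRNAs from 3 of these hosts show the product that the introns carry, as transcript sequences of GENCODE release 29 on GRCh38. Capitals mark a C box (ATGATG or GTGATG) near the 5′ end and a D box (CTGA) near the 3′ end.
SNORD1B (chr17:76561109-76561192, plus strand): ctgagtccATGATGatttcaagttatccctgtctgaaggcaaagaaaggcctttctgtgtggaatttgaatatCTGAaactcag
SNORD60 (chr16:2155023-2155105, minus strand): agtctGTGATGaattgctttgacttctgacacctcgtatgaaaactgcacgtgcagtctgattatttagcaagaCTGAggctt
SNORD50B (chr6:85677589-85677658, minus strand): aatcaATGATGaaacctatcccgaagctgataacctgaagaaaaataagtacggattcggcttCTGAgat
SNORD1B lies in an intron of SNHG16, SNORD60 in an intron of SNHG19, and SNORD50B in a stretch of SNHG5 that is also annotated as an exon of some SNHG5 transcripts.

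More hosts were lower than higher in JQ1. Of the 29 identifiers 23 had enough counts to be tested, and 2 were higher and 8 lower in JQ1 than in DMSO (edgeR quasi-likelihood test, Benjamini-Hochberg adjusted p under 0.05 over 13975 genes). Over all tested genes 15.9% were called higher and 20.6% lower. The 2 higher calls fell to 0 with library size only and to 0 without JQ1 replicate 1. The median log2 fold change, JQ1 over DMSO, was -0.23 over the 23 hosts, 0.004 over all tested genes and 0.12 over the 1866 tested lncRNA genes, of which 245 were higher and 212 lower. Of the called hosts 4 were lower by more than 1.5-fold and none was higher by that much.

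Libraries of the same number in both groups deviated together, so the replicate number was also fitted as a block, which compares JQ1 with DMSO within each number. With the block 8 hosts were higher and 11 lower, against 27.3% and 29.6% of all tested genes. All 10 calls made without the block were kept. SNHG12, GAS5, SNHG6, SNHG7, SNHG1 and ZFAS1 were added on the higher side, and DANCR, SNHG4 and SNHG25 on the lower side. SNHG3, SNHG14, SNHG21 and SNHG11 were called in neither fit. Within the 3 replicate numbers 8 hosts were higher in JQ1 in all 3 and 12 were lower in all 3, and the other 3 were mixed.

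**Figure D1:**
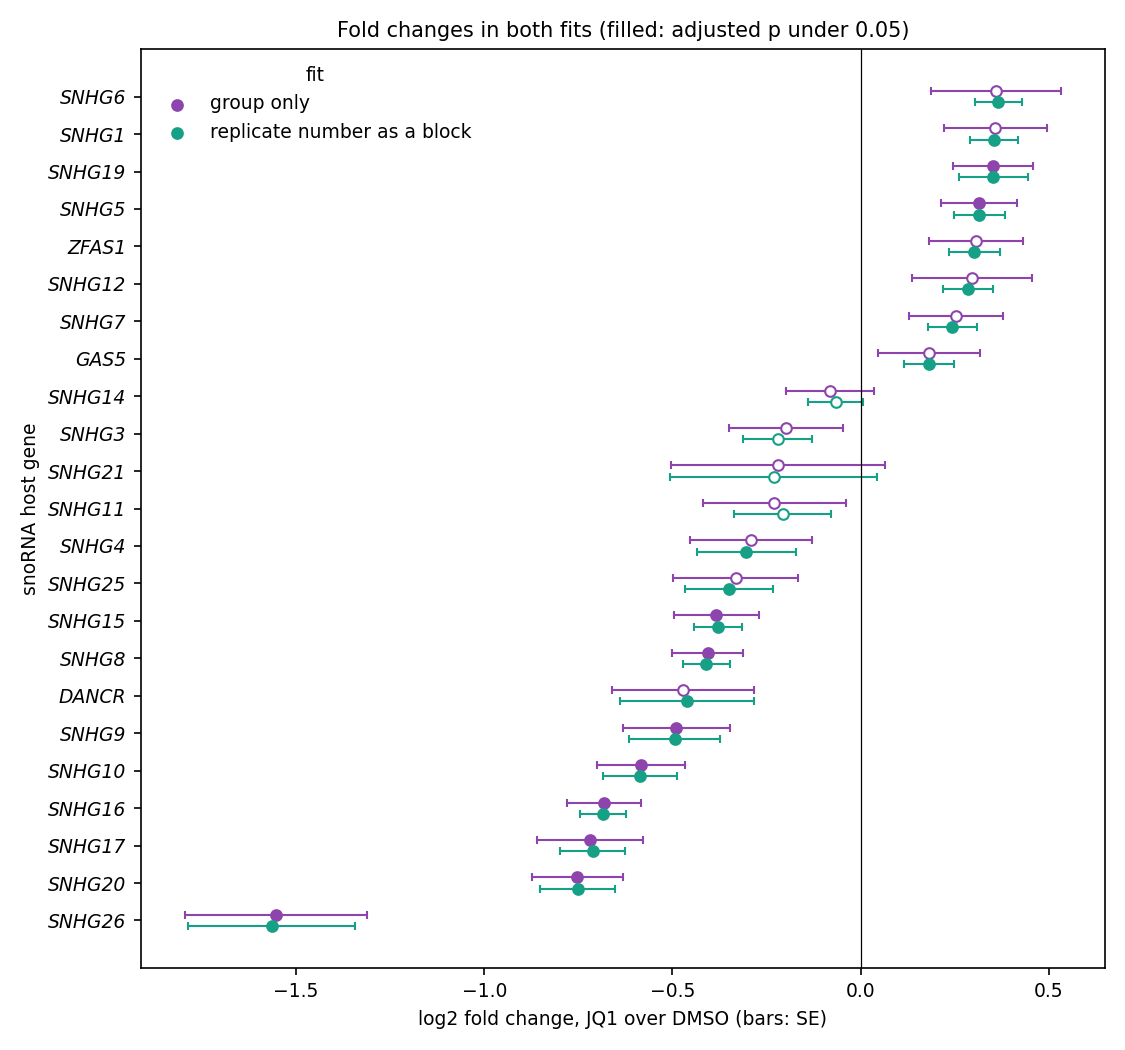
Fitted log2 fold change, JQ1 over DMSO, of the 23 tested snoRNA host genes with its standard error, from the fit on group only and from the fit with the replicate number as a block. Filled points have an edgeR adjusted p under 0.05. The estimates lie close together in both fits and the bars are shorter with the block for most hosts, among them SNHG6, SNHG1 and SNHG16.

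**Figure D2:**
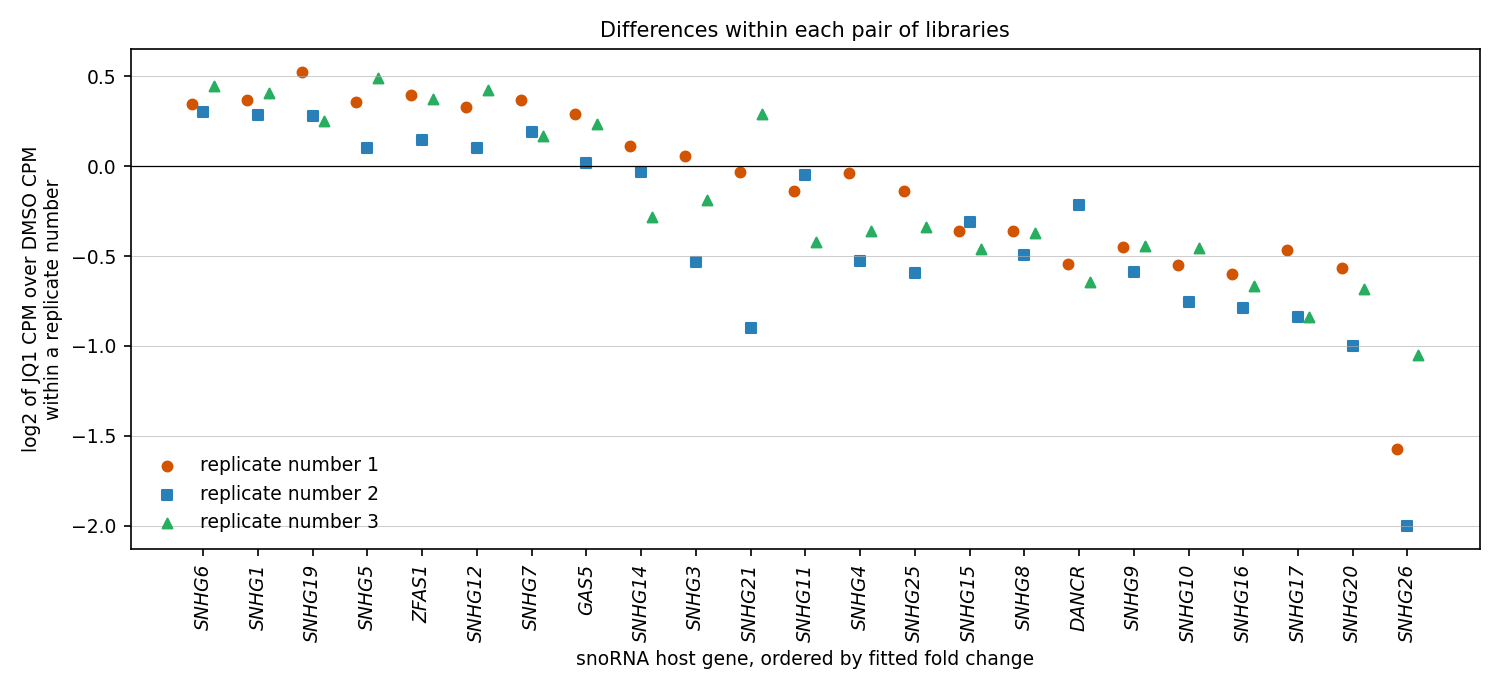
Log2 of the JQ1 CPM over the DMSO CPM within each replicate number, for the 23 tested hosts in the order of their fitted fold change. The 8 hosts on the left lie above 0 in all 3 numbers, and 12 lie below 0 in all 3, with no such count made over all tested genes. SNHG21 spreads from -0.90 to 0.29.

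Among the hosts that fell, SNHG16 was the most abundant. SNHG16 (ENSG00000163597.14, chr17:76557766-76565348, plus strand) carries the SNORD1 family of box C/D snoRNAs. It had 134, 112 and 114 CPM in JQ1 libraries 1, 2 and 3, against 202, 194 and 180.0 CPM in DMSO libraries 1, 2 and 3. All JQ1 libraries lay below all DMSO libraries. The log2 fold change was -0.68 ± 0.10 (SE; edgeR adjusted p = 0.000523), which left 62.4% of the DMSO level.

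SNHG20 and SNHG17 fell by a like amount at lower levels. SNHG20 (ENSG00000234912.10) carries SCARNA16. It had 13.2, 11.6 and 13.2 CPM in JQ1 libraries, against 19.6, 23.2 and 21.2 CPM in DMSO libraries, with no overlap between the groups. It changed by a log2 fold change of -0.75 ± 0.12 (edgeR adjusted p = 0.000918). SNHG20 shares exon bases on its strand with SEC14L1, where a read can belong to both genes. SNHG17 (ENSG00000196756.11, chr20:38420588-38435353, minus strand) carries SNORA71A, SNORA71B, SNORA71C and SNORA71D, H/ACA snoRNAs. It had 22.02, 17.4 and 22.4 CPM in JQ1 libraries and 30.4, 31.2 and 39.97 CPM in DMSO libraries, again without overlap. The fitted log2 fold change of the gene was -0.72 ± 0.14 (edgeR adjusted p = 0.00284).

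SNHG26 had the lowest fitted fold change of the 23 hosts and was a weakly counted gene. SNHG26 (chr7:22854178-22861579, plus strand), which carries SNORD93, averaged 1.33 ± 0.182 CPM in JQ1 and 3.89 ± 0.744 CPM in DMSO (SD, n = 3 each), from 81 counts in JQ1 and 279 in DMSO. Its log2 fold change was -1.55 ± 0.24 (edgeR adjusted p = 0.000799).

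SNHG10 and SNHG8 were also lower without overlap. SNHG10 (ENSG00000247092.6, chr14:95532297-95534872, minus strand), the host of SCARNA13, had 12.8, 11.6 and 13.7 CPM in JQ1 libraries, against 18.7, 19.5 and 18.8 CPM in DMSO libraries. The estimate, as log2 fold change, was -0.58 ± 0.12 (edgeR adjusted p = 0.00321). The DMSO libraries lay within 1 CPM of each other, and every JQ1 library was below them. SNHG8 (ENSG00000269893.6, chr4:118278709-118279823, plus strand), the host of SNORA24, had 78.0, 64.5 and 72.1 CPM in JQ1 libraries and 100.2, 91.0 and 93.2 CPM in DMSO libraries. In the fit its log2 fold change was -0.41 ± 0.09 (edgeR adjusted p = 0.00694).

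SNHG9 and SNHG15 passed the threshold by less. SNHG9 (ENSG00000255198.4, chr16:1964959-1965509, plus strand), the host of SNORA78, had 8.04, 6.67 and 7.80 CPM in JQ1 libraries and 10.98, 10.02 and 10.6 CPM in DMSO libraries, a log2 fold change of -0.49 ± 0.14 (edgeR adjusted p = 0.0211). SNHG15 (ENSG00000232956.8, chr7:44983023-44986961, minus strand), the host of SNORA9, had 61.6, 52.5 and 61.0 CPM in JQ1 libraries and 79.1, 65.2 and 84.2 CPM in DMSO libraries. Its log2 fold change was -0.38 ± 0.11 (edgeR adjusted p = 0.022). Neither gene's groups overlapped. Both calls were lost without JQ1 replicate 2, without DMSO replicate 1 and without DMSO replicate 3, with edgeR adjusted p over the 6 libraries left out in turn of 0.0367 to 0.0739 for SNHG9 and 0.00769 to 0.0767 for SNHG15.

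The hosts that rose did so by less. SNHG5 (ENSG00000203875.10), the host of the SNORD50 snoRNAs, had 117, 99.97 and 108 CPM in JQ1 libraries, against 91.3, 93.1 and 77.1 CPM in DMSO libraries. The lowest JQ1 library was above the highest DMSO library. On the log2 scale the fold change was 0.32 ± 0.10 (edgeR adjusted p = 0.0316). SNHG19 (ENSG00000260260.1, chr16:2154797-2155358, minus strand), the host of SNORD60, had 23.6, 21.5 and 21.4 CPM in JQ1 libraries and 16.4, 17.8 and 17.96 CPM in DMSO libraries, a log2 fold change of 0.35 ± 0.11 (edgeR adjusted p = 0.025). Its groups did not overlap either. Both calls depended on single libraries and on the scaling: each was lost with library size only (no TMM factors) and without JQ1 replicate 1. SNHG5 was also lost without JQ1 replicate 3 or DMSO replicate 3, and SNHG19 without DMSO replicate 1 or 2 and with no filter on low counts. Over the libraries left out in turn the edgeR adjusted p ran from 0.0271 to 0.113 for SNHG5 and from 0.0403 to 0.0948 for SNHG19.

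**Figure D3:**
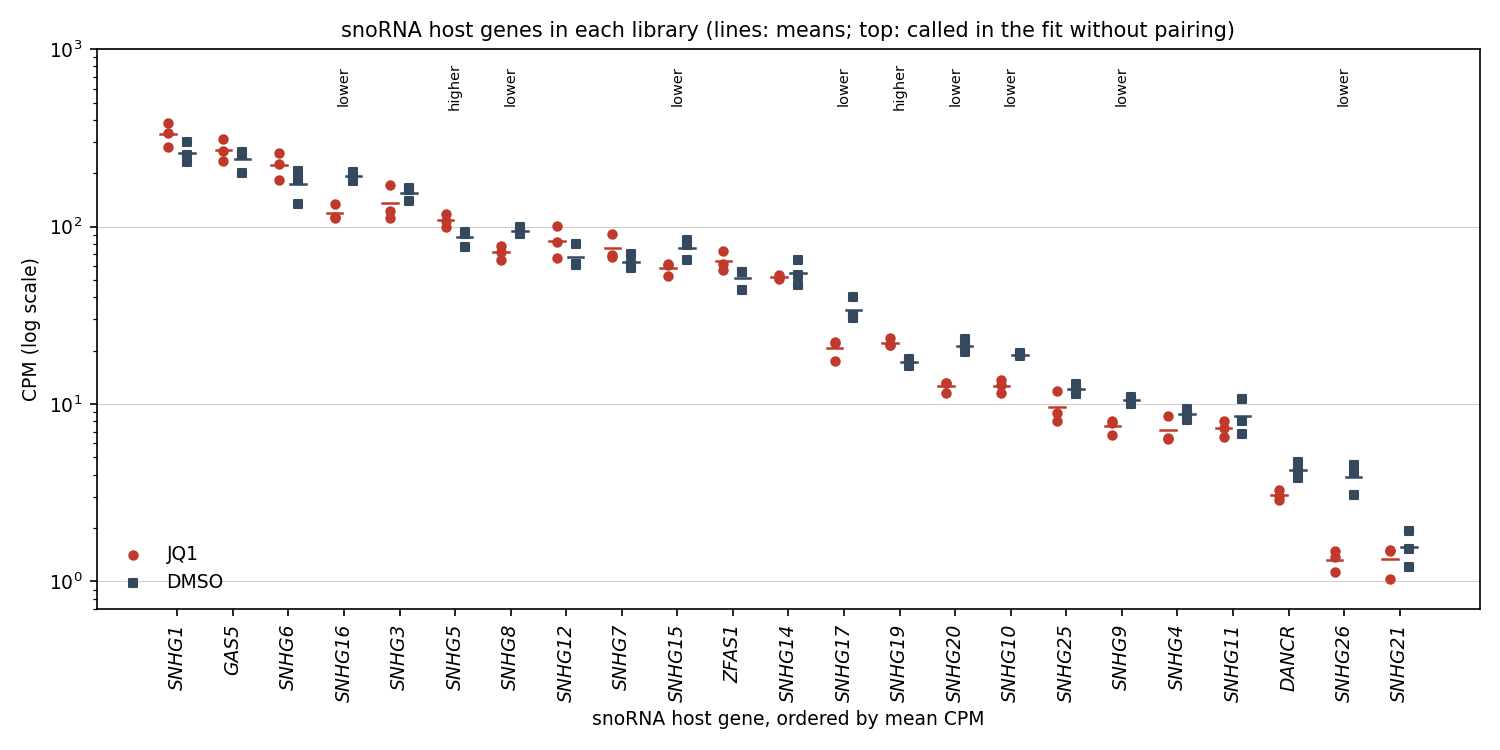
CPM on a log axis of the 23 tested hosts in each library, JQ1 as circles and DMSO as squares, with a line at each group's mean and the call of the fit on group only at the top. SNHG16 and SNHG17 show gaps between the groups, while the JQ1 and DMSO points of SNHG1, GAS5, SNHG6 and SNHG3 overlap.

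The hosts with the highest mean CPM were SNHG1, GAS5, SNHG6, SNHG16 and SNHG3. Of these only SNHG16 was called in the main fit on group only. SNHG1 (ENSG00000255717.6, chr11:62851988-62855914, minus strand), known as the U22 host gene and with 7 annotated snoRNAs, had 386, 281 and 336 CPM in JQ1 libraries and 299, 231 and 253 CPM in DMSO libraries. The groups overlapped, with DMSO library 1 above JQ1 library 2. The fitted log2 fold change was 0.36 ± 0.14 (edgeR adjusted p = 0.0645, and 1.81e-05 with the replicate block). SNHG1 was called higher under 5 of 13 alternatives and not under 8. Beside the block the 5 were DESeq2 (adjusted p = 0.0454) and no filter on low counts (edgeR adjusted p = 0.00855). The others left out JQ1 replicate 2 (edgeR adjusted p = 0.0222) or DMSO replicate 1 (0.0344). Within the replicate numbers 1, 2 and 3 it was higher by 0.37, 0.28 and 0.41 on the log2 scale.

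GAS5 (ENSG00000234741.7, chr1:173863900-173868882, minus strand) had 312, 266 and 235 CPM in JQ1 libraries, against 255, 263 and 199.5 CPM in DMSO libraries. Its groups overlapped, with DMSO libraries 1 and 2 above JQ1 library 3. The log2 fold change was 0.18 ± 0.14 (edgeR adjusted p = 0.325, and 0.0196 with the replicate block), and within replicate number 2 the difference was 0.02 on the log2 scale. RefSeq places 11 snoRNAs inside GAS5, and 8 of them lie wholly inside a stretch that GENCODE annotates as an exon of some GAS5 transcript. They have no gene of their own in that release, so reads from them may be counted as GAS5.

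SNHG6 (ENSG00000245910.8, chr8:66921684-66926398, minus strand), the host of SNORD87, had 261, 226 and 183 CPM in JQ1 libraries and 205, 184 and 134 CPM in DMSO libraries. The levels of both groups were highest in library 1 and lowest in library 3, and the groups overlapped. Its log2 fold change was 0.36 ± 0.17 (edgeR adjusted p = 0.132, and 7.27e-06 with the replicate block). SNHG6 was also called higher with no filter on low counts (edgeR adjusted p = 0.00723), but not under 11 of 13 alternatives. SNHG3 (ENSG00000242125.3, chr1:28505980-28510892, plus strand), the host of SNORA73A and SNORA73B (U17), had 172, 111 and 123 CPM in JQ1 libraries and 165, 161 and 139.9 CPM in DMSO libraries. JQ1 library 1 was above every DMSO library and the other JQ1 libraries were below them. This gave a log2 fold change of -0.20 ± 0.15 (edgeR adjusted p = 0.337), and -0.41 with an edgeR adjusted p of 0.0247 without JQ1 replicate 1. SNHG3 shares exon bases with RCC1 on the same strand.

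Of the other hosts added on the higher side by the block, ZFAS1, which carries the SNORD12 family, averaged 63.8 ± 8.43 CPM in JQ1 and 51.7 ± 6.84 CPM in DMSO (SD, n = 3 each), and its groups did not overlap. The estimate, as log2 fold change, was 0.31 ± 0.12 (edgeR adjusted p = 0.0783, and 0.000293 with the block). ZFAS1 was also called higher with no filter on low counts (edgeR adjusted p = 0.037), but not under 11 of 13 alternatives. SNHG12, the host of SNORA44, SNORA61, SNORA16A and SNORD99, averaged 83.0 ± 17.1 CPM in JQ1 and 67.6 ± 10.9 CPM in DMSO (edgeR adjusted p = 0.176, and 0.000444 with the block). SNHG7, the host of SNORA17A and SNORA17B, averaged 75.5 ± 12.9 CPM in JQ1 and 63.5 ± 5.90 CPM in DMSO (edgeR adjusted p = 0.137, and 0.00157 with the block). Their log2 fold changes were 0.30 ± 0.16 for SNHG12 and 0.25 ± 0.12 for SNHG7. SNHG12 was also called higher with no filter on low counts (edgeR adjusted p = 0.0408) and without JQ1 replicate 2 (0.0414). Under 10 of 13 alternatives it was not called.

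On the lower side the block added weakly counted hosts. DANCR, named as an antagonist of differentiation and the host of SNORA26, averaged 3.06 ± 0.210 CPM in JQ1 and 4.24 ± 0.466 CPM in DMSO (SD, n = 3 each), without overlap. Its log2 fold change was -0.47 ± 0.19 (edgeR adjusted p = 0.0744, and 0.0268 with the block). SNHG4, the host of SNORA74A, averaged 7.13 ± 1.21 CPM in JQ1 and 8.77 ± 0.582 CPM in DMSO (edgeR adjusted p = 0.188, and 0.0473 with the block), and shares exon bases with MATR3 on its strand. SNHG25, the host of SNORD104 and SNORA50C, averaged 9.61 ± 2.03 CPM in JQ1 and 12.2 ± 0.865 CPM in DMSO (edgeR adjusted p = 0.144, and 0.0111 with the block). SNHG25 has exons of 278 bases in all, and all 133 bases of SNORA50C are annotated on them on the same strand. A read there can belong to both genes and is then left out, so the level of SNHG25 may be too low.

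The hosts called in neither fit beside SNHG3 were SNHG14, SNHG11 and SNHG21. SNHG14, the long imprinted transcript of chromosome 15 with 84 annotated snoRNAs, averaged 52.2 ± 1.35 CPM in JQ1 and 55.1 ± 9.22 CPM in DMSO (SD, n = 3 each), a log2 fold change of -0.08 ± 0.12. Of the reads on both strands of SNHG14 23.4% were on the opposite strand, where UBE3A is annotated, against at most 1.29% for the other tested hosts. SNHG11 averaged 7.29 ± 0.736 CPM in JQ1 and 8.52 ± 2.02 CPM in DMSO. SNHG21 averaged 1.34 ± 0.263 CPM in JQ1 and 1.55 ± 0.357 CPM in DMSO, and its difference within the replicate numbers went both ways. Of its 1053 exon bases 768 are shared with AC105339.2 on the same strand. Reads that fall on both genes are left out, so the level of SNHG21 may be too low.

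Hosts below 50 CPM mostly had negative values, while those above it went both ways, as a description made after the values were seen. Of the 12 tested hosts with a mean of at least 50 CPM, 7 had a positive log2 fold change. Of the 11 below 50 CPM, 1 had a positive one, SNHG19, and 10 had a negative one. The same split was not counted over all tested genes. All 29 hosts together summed to 1950, 1556 and 1601 CPM in JQ1 libraries, against 1786, 1652 and 1540 CPM in DMSO libraries, or 1702 ± 216 CPM in JQ1 and 1659 ± 123 CPM in DMSO (SD, n = 3 each), so the groups overlapped in this sum. The 8 hosts called lower summed to 331, 278 and 305 CPM in JQ1 and 465, 439 and 451 CPM in DMSO. They were picked by that call in these same libraries, so their sum had to be lower in JQ1. For 12 of the 23 tested hosts no JQ1 library overlapped a DMSO library, against 48.9% of all tested genes.

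Per kilobase of annotated exon, with the exons of all transcripts of a gene joined, SNHG6 stood highest among the hosts. The joined exons can be longer than the transcripts made in these cells, and by an unlike amount in each gene. Reads on bases shared with other genes are left out, so the order on this scale is rough. SNHG6 had 179 CPM per kilobase in JQ1 and 139.7 in DMSO, and was in place 3 among the 1866 tested lncRNA genes by its mean. SNHG8 had 77.5 CPM per kilobase in JQ1 and 103 in DMSO, SNHG1 had 89.0 in JQ1 and 69.5 in DMSO, and GAS5 had 74.7 in JQ1 and 65.9 in DMSO. SNHG19, with exons of only 342 bases, had 64.9 CPM per kilobase in JQ1 and 50.8 in DMSO. At the other end SNHG26 had 0.505 CPM per kilobase in JQ1 and 1.48 in DMSO.

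The 6 hosts that were not tested had few or no counts. SNHG18, SNHG22 and SNHG27 had 0 counts in all 6 libraries, which allows up to 0.0487 CPM over the JQ1 libraries and 0.0416 CPM over the DMSO libraries (3 counts, counting error only). Both SNHG28 identifiers had 0 counts as well, but their exons share bases on the same strand with each other and with VSIG8, and reads that fall on several genes are left out, so no such limit is given for them. MEG8 had 0 counts in each JQ1 library and 1, 2 and 1 counts in DMSO libraries 1, 2 and 3, and none of the 46 snoRNA genes annotated inside it had a count. No fold is given for these hosts.

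Most of the snoRNA genes inside the hosts, with the arrays of SNHG14 and MEG8 included, had no count, and 23 of the other 47 were tested. GENCODE annotates 182 snoRNA and scaRNA genes inside the hosts on their strand, of which 84 are in SNHG14 and 46 in MEG8. Of the 182, 135 had no count in any library, and 23 were tested. Of the tested ones 0 were higher and 2 lower in JQ1 (edgeR adjusted p under 0.05), with 0 higher and 2 lower by unadjusted p under 0.05, and 0 higher and 1 lower by DESeq2. Of all tested genes 15.9% were called higher and 20.6% lower. Few counts limit most of these snoRNA genes, so their calls cannot be weighed against those shares. For 48 of the 182 some or all bases lie in an exon of the host by GENCODE release 29, where a read can belong to both genes, and 44 of these had no count. The other 4 were counted (SNORD30, SNORD116-4, SNORD116-26 and SNORD116-27), and the release used for counting is not given in the sources used here. Outside SNHG14 and MEG8, 21 small RNA genes had no base in a host exon, and of these 17 had counts and 14 were tested.

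The best counted small RNAs differed little between the groups. SNORA73B, an H/ACA snoRNA that takes part in cleavage of the ribosomal RNA precursor, had 293.5, 336 and 188 CPM in JQ1 libraries, against 296, 357.5 and 197 CPM in DMSO libraries. The difference came to a log2 fold change of -0.05 ± 0.27 (edgeR adjusted p = 0.896), and its levels followed the replicate number in both groups. SCARNA13, a scaRNA inside SNHG10, had 213, 268 and 194.5 CPM in JQ1 libraries and 212, 273 and 181.5 CPM in DMSO libraries. On the log2 scale the fold change was 0.02 ± 0.16 (edgeR adjusted p = 0.943), beside -0.58 ± 0.12 for SNHG10 itself. SNORD104 inside SNHG25 averaged 9.77 CPM in JQ1 and 11.1 CPM in DMSO, and SNORA71A inside SNHG17 averaged 9.21 CPM in JQ1 and 10.7 CPM in DMSO.

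Inside SNHG17, where the host had -0.72, the log2 fold changes of SNORA71A, SNORA71B, SNORA71C and SNORA71D were -0.21 ± 0.15, -0.16 ± 0.25, -0.16 ± 0.30 and -0.34 ± 0.34. The copies of SNORA71 are alike in sequence, so reads may be lost between them. SNORD1B, whose sequence is shown above with its host SNHG16, had 30 counts in JQ1 and 54 in DMSO, a log2 fold change of -0.61 ± 0.44 (edgeR adjusted p = 0.303). SNORA26, inside DANCR, had 15 counts in JQ1 and 31 in DMSO, a log2 fold change of -0.79 ± 0.49 (edgeR adjusted p = 0.232). SNORD60 had 1 count in JQ1 and 0 in DMSO, and SNORD50B, which lies in an annotated exon of SNHG5, had none. Of the 15 tested small RNA genes outside SNHG14, 0 were called (edgeR adjusted p under 0.05), 0 had an unadjusted p under 0.05, and 0 were called by DESeq2. Few counts limit several of these 15, so the lack of calls does not show a lack of change. The difference between a host's change and that of its small RNA was not tested.

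Inside SNHG14 the called snoRNAs were SNORD116-6 and SNORD116-27, box C/D snoRNAs of the Prader-Willi region. SNORD116-6 had 13, 11 and 3 counts in JQ1 libraries and 22, 36 and 29 counts in DMSO libraries, a log2 fold change of -1.47 ± 0.37 (edgeR adjusted p = 0.0103). SNORD116-27 had 8, 12 and 6 counts in JQ1 libraries and 17, 39 and 20 counts in DMSO libraries, a log2 fold change of -1.30 ± 0.41 (edgeR adjusted p = 0.0295). The other 6 tested copies were not called. SNORD116-7 had a log2 fold change of -0.66 ± 0.32 (edgeR adjusted p = 0.135). The best counted copy, SNORD116-19, had 97, 118 and 74 counts in JQ1 libraries and 96, 136 and 113 counts in DMSO libraries, with a log2 fold change of -0.02 ± 0.19. The SNORD116 copies are close to identical, so reads can be lost or shared between them. All 92 bases of SNORD116-27 lie in annotated exons of SNHG14, and its call was the one lost with DESeq2. A filter of at least 1 CPM in 3 libraries also left 1 of the 2 calls.

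**Figure D4:**
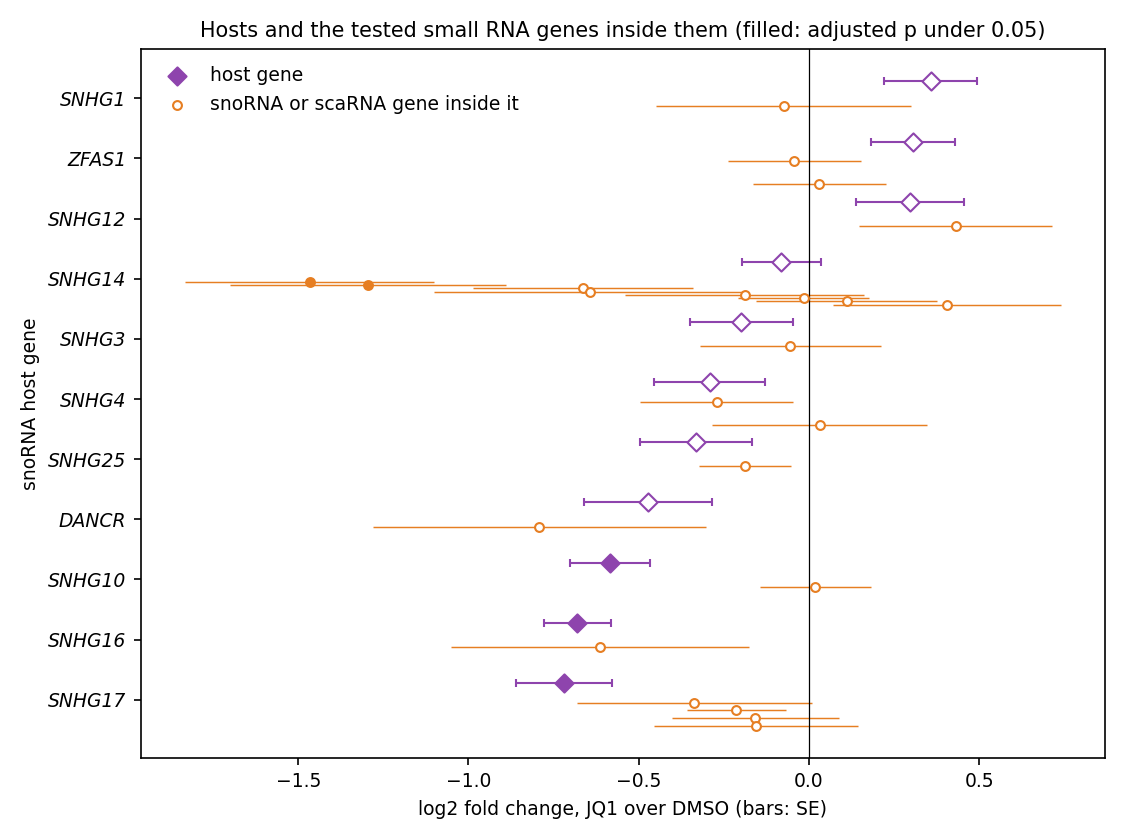
Log2 fold change, JQ1 over DMSO, with its standard error, of hosts that hold a tested small RNA gene (diamonds) and of each such gene inside them (circles); filled points have an edgeR adjusted p under 0.05. SNHG10, SNHG16 and SNHG17 are filled, while the circles outside SNHG14 are all open, and the bar of SCARNA13 inside SNHG10 crosses 0.

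Many genes for proteins that bind and assemble snoRNAs were lower in JQ1. Of 19 genes for core proteins and assembly factors of small nucleolar ribonucleoproteins, all tested, 0 were higher and 11 lower (edgeR adjusted p under 0.05), with 0 higher and 12 lower by unadjusted p under 0.05 and 0 higher and 11 lower by DESeq2. Their median log2 fold change was -0.38. Of all tested genes 15.9% were called higher and 20.6% lower. NHP2, an H/ACA core protein, averaged 45.5 ± 0.780 CPM in JQ1 and 73.1 ± 3.45 CPM in DMSO (SD, n = 3 each; log2 fold change -0.68 ± 0.08, edgeR adjusted p = 0.00018). DKC1, the pseudouridine synthase, averaged 95.0 ± 11.7 CPM in JQ1 and 156 ± 11.4 CPM in DMSO, a log2 fold change of -0.72 ± 0.11. ZNHIT6, which helps to assemble box C/D particles, had a log2 fold change of -0.66 ± 0.10 and RUVBL1, an ATPase of the same assembly machinery, one of -0.49 ± 0.10. FBL, the methyltransferase of box C/D particles, was lower too (-0.38 ± 0.10, edgeR adjusted p = 0.0144), whereas NOP56, a core protein of the same particles whose own introns hold snoRNAs, had -0.08 ± 0.14 (edgeR adjusted p = 0.67).

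Genes of nonsense-mediated decay and the exon junction complex, the route that removes many host transcripts, were mostly not called. Of 18 tested, 4 were higher and 1 lower (edgeR adjusted p under 0.05), with 7 and 5 by unadjusted p under 0.05, 4 and 0 by DESeq2, and 8 and 6 with the replicate block. The 4 and 1 are 22.2% and 5.56%, beside 15.9% and 20.6% of all tested genes. With the block 27.3% of all tested genes were higher and 29.6% lower. PNRC2, an adaptor between UPF1 and decapping, averaged 211 ± 8.33 CPM in JQ1 and 134.5 ± 20.2 CPM in DMSO (log2 fold change 0.65 ± 0.11, edgeR adjusted p = 0.00158). SMG1, the kinase that phosphorylates UPF1, had 0.47 ± 0.11, UPF3A 0.41 ± 0.09 and EIF4A3, the helicase at the heart of the exon junction complex, 0.38 ± 0.12 as log2 fold changes. UPF2 was lower by a log2 fold change of -0.22 ± 0.08 (edgeR adjusted p = 0.0498), and it was not called by DESeq2.

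Most protein-coding genes with a snoRNA inside were not called. Of 206 tested protein-coding genes with an annotated snoRNA on their strand, 28 were higher (13.6%) and 36 lower (17.5%), beside 15.9% and 20.6% of all tested genes. Their median log2 fold change was -0.02. With the replicate block 62 were higher and 60 lower, beside 27.3% and 29.6% of all tested genes. Among these 206 genes those with the smallest p, TRPM2, NCALD, MRPL3 and CHD3, were all lower. Of a list of 39 coding hosts, mostly ribosomal protein and translation factor genes, 3 were higher and 2 lower, and 12 and 6 with the block. EEF2, the elongation factor, averaged 2541 ± 196 CPM in JQ1 and 1598 ± 73.6 CPM in DMSO (log2 fold change 0.67 ± 0.12, edgeR adjusted p = 0.00182). RPL12 was higher too, with 0.59 ± 0.11, while PPAN, a ribosome assembly factor, had a log2 fold change of -1.23 ± 0.17 and DKC1 -0.72 ± 0.11. Of 12 other tested lncRNA genes with a snoRNA inside 2 were higher, AC097376.2 and AC007952.4, and 1 was lower, UBA6-AS1.

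Genes that start within 2 kb of a host on the opposite strand were set beside it. Of 6 tested, 0 were higher and 1 lower (edgeR adjusted p under 0.05), with 1 higher and 2 lower by unadjusted p under 0.05 and 1 of each by DESeq2. The 1 lower is 16.7%, beside 20.6% of all tested genes, of which 15.9% were higher. With the replicate block 1 was higher and 4 lower, beside 27.3% and 29.6% of all tested genes. The lower one in the fit on group only was ZNFX1. Its log2 fold change was -0.50 ± 0.10 (edgeR adjusted p = 0.00349), beside 0.31 for its partner ZFAS1. SLC3A2, an amino acid transporter subunit, had -0.24 beside 0.36 for SNHG1, and ZBTB37 had -0.15 beside 0.18 for GAS5. RPS2, a ribosomal protein gene, had 0.27 beside -0.49 for SNHG9, GLRX5 had 0.01 beside -0.58 for SNHG10, and TRAF7 had -0.24 beside 0.35 for SNHG19. In each of these 6 pairs the fitted values had opposite signs, but ZNFX1 was the only neighbour called in the main fit. GLRX5 had an edgeR adjusted p of 0.932, and the partners SNHG1, GAS5 and ZFAS1 were not called in the main fit on group only. The differences within pairs were not tested.

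The start sequences shown above were set against the fold changes, as a description made after the values were seen. A C followed by at least 4 more pyrimidines at the RefSeq start was present in 4.07% of 35116 RefSeq promoters and in 6 of the 23 hosts with an entry. Of the 5 tested hosts with such a start 2 were higher and 0 lower, with 3 higher and 0 lower by unadjusted p under 0.05 and 2 and 0 by DESeq2, and with the replicate block 4 were higher and 1 lower. Their median log2 fold change was 0.31. Of all tested genes 15.9% were called higher and 20.6% lower, and 27.3% and 29.6% with the block. SNHG4 was the only 1 of the 5 with a negative value. Of the 14 tested hosts with another start 0 were higher and 6 lower, with 1 and 7 at an unadjusted p under 0.05 and 1 and 6 by DESeq2, and the median was -0.32. With the replicate block 3 of these 14 were higher, SNHG1, SNHG7 and GAS5, and 7 were lower, so the absence of higher calls did not hold under the block.

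Over all genes with a RefSeq start the higher calls did not go with that start. Of 688 tested genes with it 81 were higher (11.8%) and 188 lower (27.3%), and of 8280 with another start 1429 were higher (17.3%) and 1961 lower (23.7%). The median log2 fold changes were -0.06 and -0.03. These shares were not tested against each other. Among lncRNA genes the 16 with the start had 3 higher, 4 lower and a median of -0.37, and the 381 without it had 62 higher, 63 lower and a median of 0.08. The grouping of the hosts also depends on which start is read: at any transcript start of GENCODE release 29, 13 tested hosts had such a run (2 higher, 2 lower, 7 and 4 with the block, median 0.18), among them GAS5, SNHG6, SNHG1 and also SNHG16 and SNHG8. The other 10 had 0 higher and 6 lower by edgeR, 0 and 7 at an unadjusted p under 0.05, 0 and 6 by DESeq2, 1 and 7 with the block, and a median of -0.48.

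TATAA on the transcribed strand, 40 to 20 bases before the RefSeq start, was found in 3.91% of RefSeq promoters and in 6 of the 23 hosts, which were SNHG12, SNHG8, SNHG5, SNHG7, SNHG19 and ZFAS1. Their median log2 fold change was 0.30, with 2 called higher (5 with the block), and SNHG8 was the only lower one. The 13 tested hosts without TATAA there had 0 higher, 5 lower (2 and 7 with the block) and a median of -0.29. Of the 278 tested genes with TATAA there 21.6% were higher and 19.4% lower, and the median was 0.03. The 12 tested lncRNA genes with it, hosts included, had 2 higher, 3 lower and a median of 0.28. These groups were not tested against each other. In the whole window, 250 bases before to 50 after the start and on either strand, CACGTG, the E-box bound by MYC and its relatives, was found in 1 host, SNHG7, and in 7.26% of all promoters. CCGGAAG, an ETS-type motif, was found in 2 hosts, SNHG26 and SNHG20, and in 10.3% of promoters, and GGGCGG, a GC box, in 18 hosts and in 45.0% of promoters.

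**Figure D5:**
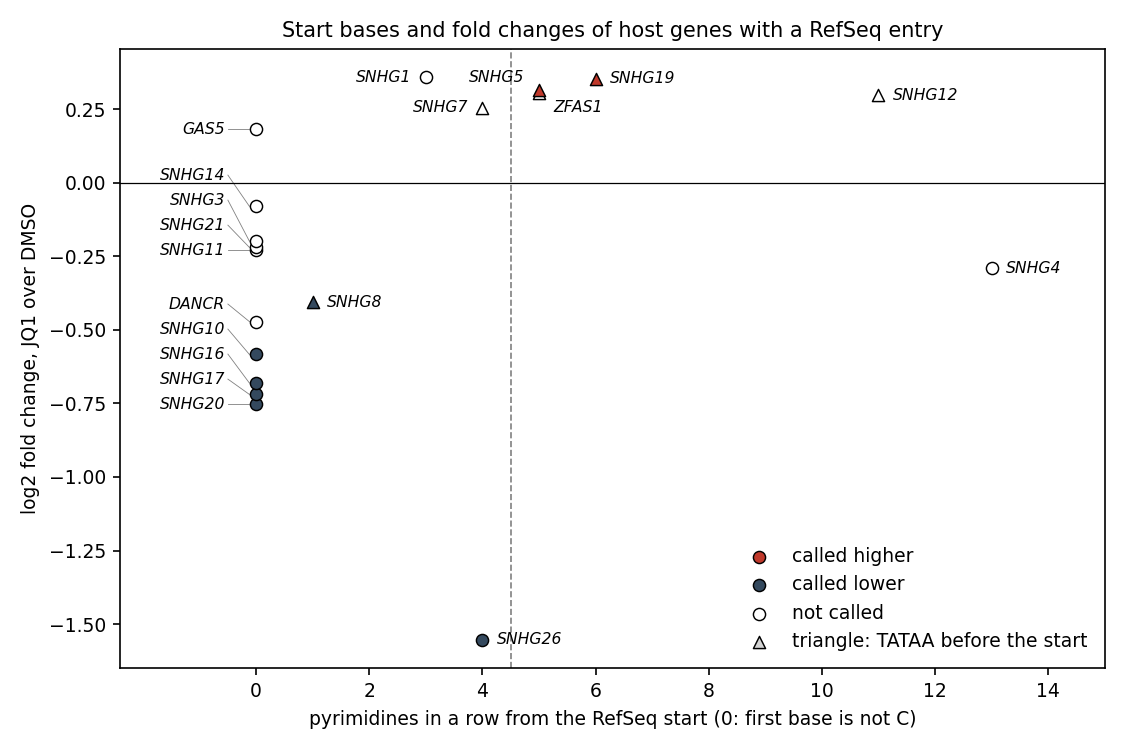
Log2 fold change, JQ1 over DMSO, of the 19 tested hosts with a RefSeq start, against the number of pyrimidines in a row from that start, with 0 for a first base other than C. To the right of the dashed line, at 5 or more, SNHG5, SNHG19, SNHG12 and ZFAS1 lie above 0 and SNHG4 below; triangles mark hosts with TATAA before the start.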

How the data were processed

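Stranded libraries were made from total RNA of ALL-SIL cells, per the labels' protocols. The sample titles gave the groups, since the treatment text of every sample gives the JQ1 exposure. The authors deposited raw counts of reads per gene, for both strands together and for each strand. Per the submitters' processing notes the reads were placed on GRCh38; aligner and annotation release were not given in the sources used here. The layout leaves out reads that fit several places or genes. The reverse-strand counts were used, since they were 20.9 to 22.6 times those of the other strand. Names, exons and positions came from GENCODE release 29, which 57447 of 58096 identifiers matched, and 53706 with their version; positions are given only for hosts whose version matched (21 of 29). Start sequences came from RefSeq (GRCh38.p14), where 23 of the 28 host names had an entry.

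Genes were kept with filterByExpr (minimum count 10, minimum total 15), scaled by TMM factors and tested with edgeR 4.0.16 (glmQLFit, glmQLFTest, robust, group only) in R 4.3.3, adjusted by Benjamini-Hochberg over 13975 genes at 0.05. CPM is the count over the TMM-scaled size of the tested genes, and SE is the absolute log2 fold change over the square root of F. The procedure was tested on simulated data. The alternatives were DESeq2 1.42.0, unstranded counts, relative log expression factors or library size only as scaling, 1 CPM in 3 libraries or no filter on low counts as filters, the replicate block, and leaving out each library. The replicate numbers come from the titles, which do not say what they mark. Deviations from the group means correlated across genes between libraries of the same number (0.33, 0.43 and 0.37), so same-numbered libraries were taken as pairs. Between the others the correlations were negative, which on balance follows from centring on the group means once the first are positive. The pairing was thus chosen on the same libraries that the block was fitted to.

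All hosts are named. Values per library are given for called hosts that reached 5 CPM in the group where they are higher and for the 5 hosts with the highest mean CPM; hosted snoRNAs by the 4 smallest p and the 4 highest counts; other lists by up to 4 genes with the smallest p. TLX1, CD79A, FBL, NOP56, UPF2, SNORD1B, SNORD60, SNORD50B, SNORD116-19, SNORD116-4, SNORD116-26, SNORD30, the SNORA71 copies beside SNORA71A and the markers without counts were added after their values were seen. The members, lists and tests were chosen with earlier results of these data known.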

Additional observations from a re-analysis of the deposited data

How the results depend on the processing

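Of the 10 called hosts SNHG8, SNHG26, SNHG10, SNHG16, SNHG20 and SNHG17 kept their call under all 13 alternatives, and SNHG5, SNHG15, SNHG9 and SNHG19 lost theirs under some. Over 299 values, 1 per tested host and alternative, 265 stayed on their side of the threshold, 15 lost a call and 19 gained one, and none with a call changed sign. The count of hosts called higher, 2, was 0 with library size only, 5 without the filter on low counts and 8 with the replicate block, and 0 to 4 with each library left out in turn. The count called lower, 8, was 6 to 10 with each library left out and 11 with the replicate block. With the names in use now, 3 hosts were higher and 8 lower. Hosted snoRNAs called lower, 2, came to 1 with DESeq2, 1 with at least 1 CPM in 3 libraries, and 1 to 2 with each library left out. Over all the other lists together 34 genes were higher and 49 lower, against 74 and 86 with the replicate block, and 22 to 30 were higher with each library left out. The median over all tested genes was -0.06 with library size only and 0.004 with TMM factors, and that over the hosts -0.30 and -0.23. The causes of these changes were not tested. With 3 libraries a group the SE of the hosts' log2 fold changes ran from 0.09 to 0.28 without the block, and few counts limit SNHG26, SNHG21, DANCR and most snoRNA genes; the reads carry no molecular identifiers.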

Other observations

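After GENCODE release 29, 4 more genes were given SNHG names, and they were not among the 29 hosts. SNHG32 (C6orf48 in that release, then protein coding) averaged 124 ± 12.2 CPM in JQ1 and 102 ± 4.87 CPM in DMSO (SD, n = 3 each), with no overlap between the groups and a log2 fold change of 0.28 ± 0.09 (edgeR adjusted p = 0.0401). SNHG29 (LRRC75A-AS1), at 654 ± 61.4 CPM in JQ1 and 575.5 ± 92.6 CPM in DMSO, was counted more highly than any of the 29 hosts. Its log2 fold change was 0.19 ± 0.14 (edgeR adjusted p = 0.321, and 0.0169 with the replicate block). SNHG30 (LINC02001) averaged 8.90 ± 1.03 CPM in JQ1 and 10.3 ± 0.467 CPM in DMSO, and SNHG31 (AC016708.1) 3.68 ± 0.665 CPM in JQ1 and 3.82 ± 0.347 CPM in DMSO, with log2 fold changes of -0.21 ± 0.14 and -0.04 ± 0.20 (edgeR adjusted p = 0.268 and 0.887).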
